A study of Macaca mulatta with 5 samples.

Results

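The acetylcholine receptor genes measured here were 9 of the 21761 features in single nuclei of rhesus macaque claustrum, the thin sheet of grey matter between insular cortex and striatum. They were chosen by symbol: the nicotinic subunits CHRNA2, CHRNA4, CHRNA6, CHRNA7, CHRNB2 and CHRNB3 and the muscarinic receptors CHRM1, CHRM2 and CHRM3. The feature tables gave the symbol of 8 of them, and CHRNA4 was matched by its macaque identifier, ENSMMUG00000015916. The tissue was frozen and came from 2 healthy, untreated males, an animal of 18 months with 3 libraries and an animal of 17 months with 2 libraries. Each age was therefore 1 animal, and the 5 libraries are repeats on 2 animals.

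Acetylcholine acts on both kinds of receptor. Nicotinic receptors are cation channels of several subunits, and muscarinic receptors are G protein-coupled. The alpha7 subunit (CHRNA7) can form a channel alone and passes calcium. CHRNA4, CHRNA2 and CHRNA6 form channels with beta subunits, among them CHRNB2, and CHRNB3 is an accessory subunit often found with CHRNA6. CHRM1 and CHRM3 signal through Gq and phospholipase C, while CHRM2 signals through Gi and Go and is also known as a receptor on cholinergic terminals. In the striatum, next to the claustrum, acetylcholine comes from local interneurons, and in the cortex mostly from the basal forebrain.

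The libraries held 63073988, 70896967 and 57299421 UMIs (unique molecular identifiers, 1 per captured RNA molecule) in the 18-month animal, and 50993715 and 47512670 in the 17-month animal, and 37091 nuclei were kept. Any pair of libraries shared between 11 and 39 barcodes, at most 0.487% of the smaller library. Clusters were named from marker genes as 8827 excitatory, 2585 inhibitory and 2190 striatal projection neurons, 13756 oligodendrocytes, 2055 oligodendrocyte precursors (OPC), 2828 microglia and 1207 astrocytes, besides rarer types. Median depth was 15849 UMIs per excitatory nucleus, 8173 per inhibitory nucleus, 13054 per striatal projection nucleus and 2036 to 3750 in the 4 glial classes. Striatal projection neurons were uneven, with 359, 863 and 590 nuclei across the 18-month animal and 239 and 139 across the 17-month animal. Excitatory nuclei showed their 6 markers at a summed 1230 to 1400 counts per 1000000 UMIs (CPM), against 47.4 to 124 CPM in inhibitory nuclei. Clusters were made from these same nuclei, from other genes than the 9 receptor genes.

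The 9 genes differed widely in depth, which sets how firmly each can be described. CHRM3 had 128666 UMIs in 17935 nuclei and CHRNA7 had 8820 UMIs in 5332 nuclei. CHRNB2 had 545 UMIs, CHRNA2 226, CHRNB3 129 and CHRNA6 120. CHRM2 had 49 UMIs, CHRM1 35 and CHRNA4 11, so these 3 could be described but not compared. Expression is given as CPM of the summed UMIs of a cell class in a library, as mean ± SD over libraries. The counts are of 3' ends and carry no correction for gene length, so levels are set side by side between cell classes and not between genes. A gene was called when the adjusted p (edgeR's quasi-likelihood test, Benjamini-Hochberg over all genes tested) was under 0.05 and the absolute log2 fold change (log2FC) was at least 1. Because the libraries come from 2 animals, these p-values measure the spread between libraries.

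The first comparison asks where in the tissue the receptor genes were found, in neurons or in glia. CHRM3 and CHRNB2 were higher in neurons than in glia, and CHRNA7 was higher by a smaller amount. In the mean of the 3 neuron classes CHRM3 was at 545 ± 14.7 CPM, against 96.9 ± 37.5 CPM in the mean of the 4 glial classes (log2FC 2.77, SE 0.117, adjusted p = 1.23e-17, same direction in 5 of 5 libraries). CHRNB2 was at 2.76 ± 0.456 CPM in neurons and 0.702 ± 0.425 CPM in glia (log2FC 2.57, SE 0.286, adjusted p = 3.53e-10). CHRNA7 was at 50.2 ± 4.74 CPM in neurons and 31.3 ± 3.71 CPM in glia (log2FC 1.00, SE 0.0942, adjusted p = 4.04e-11), and its fold change was at the threshold itself, falling to between 0.95 and 0.98 under 4 of the alternatives. Among 10020 genes tested, 24.6% were called and 15.1% were called higher in neurons, and 3 of the 5 receptor genes that passed the filter on low counts were called higher. One of the called genes, CHRNB2, had only 29 UMIs over the 4 glial classes and did not pass the filter among glia alone. It passed here through neurons, as did CHRNA2 and CHRNA6, so a call in the lower direction was not open to them. The count of 3 can therefore not be weighed against the 15.1% of all genes. Of the 5 that passed, CHRNA6 was not called (log2FC 1.72, adjusted p = 0.0668). CHRNA2, with 0 UMIs in striatal projection nuclei and in astrocytes, was not called either (with DESeq2, log2FC 0.40, adjusted p = 0.518). CHRNB3, CHRM1, CHRM2 and CHRNA4 did not pass.

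Genes around the receptors were described from lists chosen with earlier results of these data known. Of 12 genes of muscarinic signalling, 6 were called higher in neurons and 0 lower, with a median log2FC of 0.9 beside 0.07 over all genes tested. They included KCNQ5 (log2FC 2.42, adjusted p = 1.62e-18), a subunit of the M-current channel that muscarinic signalling closes, and KCNJ6 (log2FC 2.48, adjusted p = 2.42e-13), an inward rectifier opened by G proteins. Of 6 genes of acetylcholine synthesis, transport and breakdown, 4 were tested, 1 was higher and 2 were lower. BCHE, which encodes butyrylcholinesterase, was at 6.45 ± 0.621 CPM in neurons and 39.0 ± 6.85 CPM in glia (log2FC -2.52, adjusted p = 7.9e-12). Of 6 genes of nicotinic receptor assembly and modulation, 4 were tested and 1 was higher, and of 10 other nicotinic subunits 1 was tested and 0 were called. The 2 other muscarinic receptors did not pass the filter: CHRM4 had 9 UMIs in excitatory and 5 in striatal projection nuclei, and CHRM5 had 0 and 0.

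CHRM3 was detected in every neuron type, but its level differed several-fold between types. SST-like interneurons, the somatostatin type, were highest, with 1120, 1110 and 999 CPM across the 18-month animal and 1040 and 1150 CPM across the 17-month animal. VIP-like interneurons were next at 757 ± 72.1 CPM, followed by claustrum-like excitatory neurons at 701 ± 20.5 CPM and D2-type striatal projection neurons at 676 ± 29.2 CPM. The step down from SST-like to VIP-like neurons was larger than its spread over libraries, with SST-like higher in 5 of 5 libraries, while VIP-like and claustrum-like neurons did not differ from the next in order beyond their spread. D2-type neurons were above layer 4/5 IT-like neurons beyond the spread, in 3 of 3 libraries. Layer 4/5 IT-like neurons (489 ± 53.0 CPM over 3 libraries) and LAMP5 or SNCG-like interneurons (474 ± 75.3 CPM) formed the next step. Layer 6 IT-like, layer 6 CT-like, PVALB-like and D1-type neurons followed between 362 ± 20.6 and 272 ± 30.9 CPM, with no difference between neighbours beyond the spread.

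**Figure D1:**
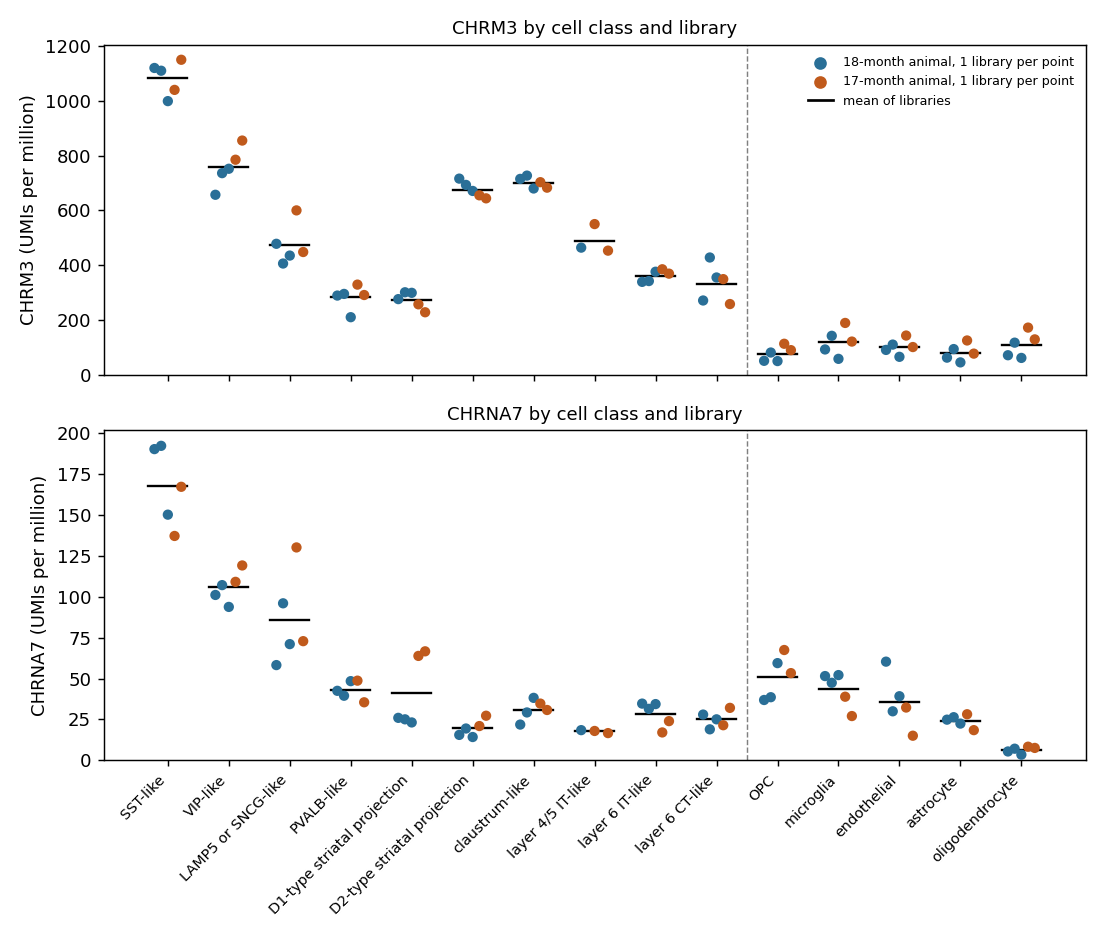
CHRM3 (top) and CHRNA7 (bottom) in CPM (linear axis) by cell class, with 1 point per library of at least 20 nuclei and a bar at the mean of libraries. Neuron classes stand left of the dashed line and glial and vascular classes right of it. SST-like neurons are highest for both genes, at means of 1080 and 167 CPM, and CHRNA7 in OPC and microglia lies in the range of several neuron classes.

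The level of CHRM3 in claustrum-like neurons, the excitatory type named for this tissue, was next set against that in the other named excitatory neurons. CHRM3 was at 715, 727 and 680 CPM in claustrum-like neurons across the 18-month animal and at 703 and 683 CPM across the 17-month animal. In the other named excitatory neurons it was at 318, 407 and 371 CPM across the 18-month animal and 388 and 345 CPM across the 17-month animal, so the groups did not overlap. The log2FC of 0.98 (SE 0.0573, adjusted p = 2.9e-08, higher in 5 of 5 libraries) lay just under the size needed for a call, and it was 1.01 and called without 17-month library 1. The size depended on the excitatory neurons set against them: all other excitatory nuclei, unnamed clusters included, were at 534 ± 25.1 CPM of CHRM3, and against them the log2FC was 0.39 (adjusted p = 7.42e-06). Unnamed excitatory cluster 7, with 512 nuclei, was at 802 ± 17.8 CPM, above the mean of each claustrum-like cluster. By its markers it was closest to the claustrum-like type, as was unnamed cluster 12 with 154 nuclei. Their marker scores of 0.47 and 0.43 were under the 0.5 needed for that name. The wider reference therefore held nuclei that resembled claustrum-like neurons. It also held unnamed clusters closest to other excitatory types. Of these, cluster 4, the largest unnamed cluster with 1229 nuclei, was at 559 ± 22.7 CPM of CHRM3. Cluster 10, with 200 nuclei, was at 615 ± 74.2 CPM. The part of each cluster in the smaller log2FC was not tested. Of 10044 genes tested, 8.66% were called in either direction, and of the 3 receptor genes that passed the filter 0 were called. CHRNA7 (log2FC 0.28, adjusted p = 0.289) and CHRNB2 (log2FC 0.03, adjusted p = 0.957) were not past the adjusted p threshold.

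Among other cholinergic genes in that comparison, 7 were called, 3 higher and 4 lower in claustrum-like neurons. SLC5A7, the choline transporter, averaged 0.341 ± 0.0966 CPM in claustrum-like neurons, against 2.77 ± 1.45 CPM in the others (log2FC -2.97, adjusted p = 1.91e-05). RGS4, which shortens G protein signalling, was lower, with 6.06 ± 0.92 CPM in claustrum-like neurons, against 27.6 ± 5.38 CPM (log2FC -2.15, adjusted p = 5.08e-09), and CHRNA5, a nicotinic accessory subunit, was at 0.958 ± 0.662 CPM, against 3.79 ± 1.98 CPM (log2FC -1.94, adjusted p = 2.54e-05). LYPD6, a membrane-anchored modulator of nicotinic receptors, was higher at 6.22 ± 2.58 CPM, against 1.74 ± 0.557 CPM (log2FC 1.87, adjusted p = 5e-05). By list, 2 of 4 tested assembly genes were higher, and 1 of 12 signalling genes was higher and 2 were lower.

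Within the claustrum-like type, CHRM3 varied less. It was tested across claustrum-like clusters 1, 2, 3, 8 and 11, each against the mean of the others, where 2.36%, 1.9%, 2.05%, 2.18% and 1.9% of 9509 genes were called and 0 receptor genes. Cluster 11, led by NPAS4 and FOS, had the lowest CHRM3 level at 462 ± 54.8 CPM, against 701 ± 26 CPM in the others (log2FC -0.57, adjusted p = 7.56e-06). Cluster 2 (log2FC 0.34, adjusted p = 0.000233) and cluster 3 (log2FC 0.29, adjusted p = 0.00159) passed the p threshold on the higher side, and CHRNA7 did so in cluster 1 (log2FC 0.52, adjusted p = 0.00105). All 4 differences were under 2-fold.

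CHRM3 separated the types of striatal projection neurons. D1-type neurons, the direct pathway type with 756 nuclei, had 276, 301 and 299 CPM of CHRM3 across the 18-month animal and 257 and 228 CPM across the 17-month animal. D2-type neurons, the indirect pathway type with 941 nuclei, had 716, 693 and 671 CPM across the 18-month animal and 655 and 644 CPM across the 17-month animal. Every D1-type value was below every D2-type value (log2FC -1.31, SE 0.0471, adjusted p = 2.17e-22, lower in 5 of 5 libraries). CHRM3 was 1 of 64 genes called among 7643 tested, and 0.837% of those genes were called in either direction and 0.327% lower in D1-type neurons. Without striatal clusters 7 and 9, which came mostly from 18-month library 2, the log2FC was -1.30. After thinning each nucleus to 1000 UMIs, 21.9% ± 1.78 of D1-type and 47.6% ± 2.09 of D2-type nuclei had a CHRM3 UMI.

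CHRNA7 ran the other way but was not called. It was at 26, 25.1 and 23.2 CPM in D1-type neurons across the 18-month animal and 63.8 and 66.6 CPM across the 17-month animal. In D2-type neurons it was at 15.6, 19.5 and 14.3 CPM across the 18-month animal and 21 and 27.3 CPM across the 17-month animal. D1-type was higher in 5 of 5 libraries (log2FC 0.75, SE 0.141, adjusted p = 0.000211), under the size for a call, and the difference of this contrast between animals did not pass (18-month minus 17-month, log2 -0.94, adjusted p = 0.541). The D1-type clusters were unlike in CHRNA7: cluster 4 was at 50.1 CPM pooled, while cluster 2, the larger with 421 nuclei, was at 16.1 CPM, beside 18.0 CPM pooled in D2-type neurons. Cluster 4 made up 50 of 124, 68 of 301 and 71 of 197 D1-type nuclei across the 18-month animal and 50 of 83 and 35 of 51 across the 17-month animal. The part of this make-up in the difference was not tested. Of the other cholinergic genes 0 were called between the types.

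**Figure D2:**
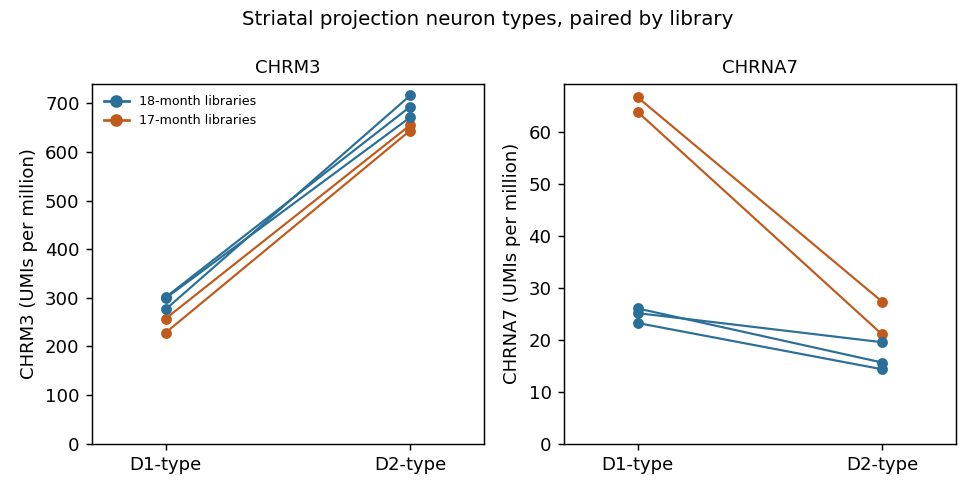
CHRM3 (left) and CHRNA7 (right) in CPM (linear axes from 0) in D1-type and D2-type striatal projection neurons, with a line joining the values of a library. CHRM3 lies between 228 and 301 CPM in D1-type and between 644 and 716 CPM in D2-type neurons. CHRNA7 is higher in D1-type neurons in each library, and highest across the 17-month animal at 63.8 and 66.6 CPM.

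As a whole class, striatal projection neurons had less CHRM3 than excitatory neurons, at 459 ± 37.8 CPM against 623 ± 12.5 CPM (log2FC -0.35, adjusted p = 3.25e-05), which was under the size for a call. Of 9851 genes tested 18.2% were called, and of the 6 receptor genes that passed the filter 0 were called. CHRNB2 was at a log2FC of 0.56 (adjusted p = 0.0286) and CHRNA7 at -0.09 (adjusted p = 0.593). CHRNA2 had 0 UMIs in 2190 striatal projection nuclei, which allows up to 0.1 CPM. Around the receptors, PRIMA1, the membrane anchor of acetylcholinesterase, was higher in striatal projection neurons (17.2 ± 1.26 CPM against 1.16 ± 0.581 CPM, log2FC 3.96, adjusted p = 3.34e-10), and so was PLCB1, a phospholipase C activated by Gq (log2FC 2.71, adjusted p = 5.02e-16). KCNJ6 (log2FC -3.20, adjusted p = 1.28e-07) and the Gi subunit GNAI1 (log2FC -3, adjusted p = 9.67e-17) were lower. By list, 1 of 12 signalling genes was higher and 3 lower, 2 of 4 tested assembly genes were lower, and 2 of 3 tested genes of acetylcholine handling were higher.

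Some nicotinic subunits were higher in inhibitory than in excitatory neurons. CHRNA2, CHRNA6, CHRNB3 and CHRNA7 were called higher in inhibitory neurons, where 14% of 9851 genes were called in either direction and 6.1% higher, and 6 receptor genes passed the filter. CHRNA2, CHRNA6 and CHRNB3 had only 8, 23 and 25 UMIs in excitatory nuclei, against 207, 78 and 80 in inhibitory nuclei. These 3 passed the filter through the inhibitory sums alone, so a call in the lower direction was not open to them. Their number cannot be weighed against the 6.1% of all genes. CHRNA7 was at 83.3, 93 and 87.1 CPM in inhibitory neurons across the 18-month animal and 99.3 and 88.2 CPM across the 17-month animal. In excitatory neurons it was at 28, 30.4 and 33.7 CPM across the 18-month animal and 30.1 and 30.3 CPM across the 17-month animal, without overlap (log2FC 1.46, SE 0.112, adjusted p = 2.33e-07). CHRNA2 was at 8.72 ± 2.89 CPM in inhibitory and 0.0502 ± 0.0371 CPM in excitatory neurons (log2FC 7.05, SE 0.327, adjusted p = 7.7e-11). CHRNA6 was at 3.33 ± 0.252 and 0.163 ± 0.119 CPM in the same order (log2FC 4.25, SE 0.401, adjusted p = 3.2e-08), and CHRNB3 at 3.49 ± 0.785 and 0.172 ± 0.118 CPM (log2FC 4.19, SE 0.36, adjusted p = 8.71e-09). CHRNB2, their common partner, did not pass the threshold (log2FC 0.42, adjusted p = 0.113), and CHRM3 was slightly lower at 553 ± 34.1 CPM, against 623 ± 12.5 CPM (log2FC -0.28, adjusted p = 0.000388), under the size for a call.

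Some of the other cholinergic genes also differed between inhibitory and excitatory neurons. BCHE was at 16.6 ± 2.15 CPM in inhibitory and 1.18 ± 0.574 CPM in excitatory neurons (log2FC 3.78, adjusted p = 9.11e-10). LYPD6 was at 53.6 ± 7.05 CPM in inhibitory and 4.16 ± 1.61 CPM in excitatory neurons (log2FC 3.60, adjusted p = 1.13e-10). PLCB4, a Gq-activated phospholipase C, was higher in inhibitory neurons (log2FC 1.39, adjusted p = 4.42e-05), and GNAO1, the Go subunit, was lower (log2FC -1.46, adjusted p = 3.22e-14). ACHE, acetylcholinesterase, was not called (log2FC 0.21, adjusted p = 0.0821). By list, 1 of 3 tested genes of acetylcholine handling was higher, 2 of 4 tested assembly genes were higher, 2 of 12 signalling genes were higher and 1 was lower, and of 3 other nicotinic subunits tested 1, CHRNA10, was lower.

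CHRNA2 UMIs were found in the VIP-like interneurons and in no nucleus of the other named interneuron types. Outside the named types, 11 of 156 nuclei of unnamed inhibitory cluster 7, whose markers were closest to VIP-like, also had a CHRNA2 UMI. VIP-like neurons, with 748 nuclei, held 47, 46 and 43 CHRNA2 UMIs across the 18-month animal and 42 and 12 across the 17-month animal, or 38.4, 41.7 and 53.7 CPM and 30.3 and 16.6 CPM. PVALB-like, SST-like and LAMP5 or SNCG-like neurons together held 0 CHRNA2 UMIs among 12269702 in 1228 nuclei. With a floor of 3 counts over that group, or 0.245 CPM, the pooled level of 36.3 CPM in VIP-like neurons was at least 148-fold higher. The difference was called with edgeR (adjusted p = 9.33e-21), while DESeq2 gave an adjusted p of 0.137. Since CHRNA2 passed the filter on low counts only through VIP-like neurons, its direction was fixed before the edgeR test. A CHRNA2 UMI was seen in 137 of 748 VIP-like nuclei, 18.9% ± 6.04 by library, against 0 of 358 SST-like nuclei, which allows up to 0.838%, and 0 of 580 PVALB-like nuclei, which allows up to 0.517%. These limits concern nuclei with a UMI and not nuclei that express the gene, since most VIP-like nuclei had no CHRNA2 UMI either. In oligodendrocytes 6 of 13756 nuclei had a CHRNA2 UMI (0.0436%), at a median of 2395 UMIs per nucleus beside 6562.5 in VIP-like nuclei.

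Among VIP-like clusters, CHRNA2 was highest in inhibitory cluster 1 (47.3 CPM pooled), led by VIP and SCGN, and lower in clusters 9 (24.7 CPM) and 6 (18.1 CPM). CHRNA7 was ordered otherwise, with 190 CPM in cluster 6 and 72.6 CPM in cluster 1. Over the 17 named classes and subclasses with enough nuclei, the mean log2 level of SCGN followed that of CHRNA2 most closely, with a Pearson r of 0.986, followed by NPR3 at 0.958 among named genes. These values describe 17 points from the same 5 libraries.

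**Figure D3:**
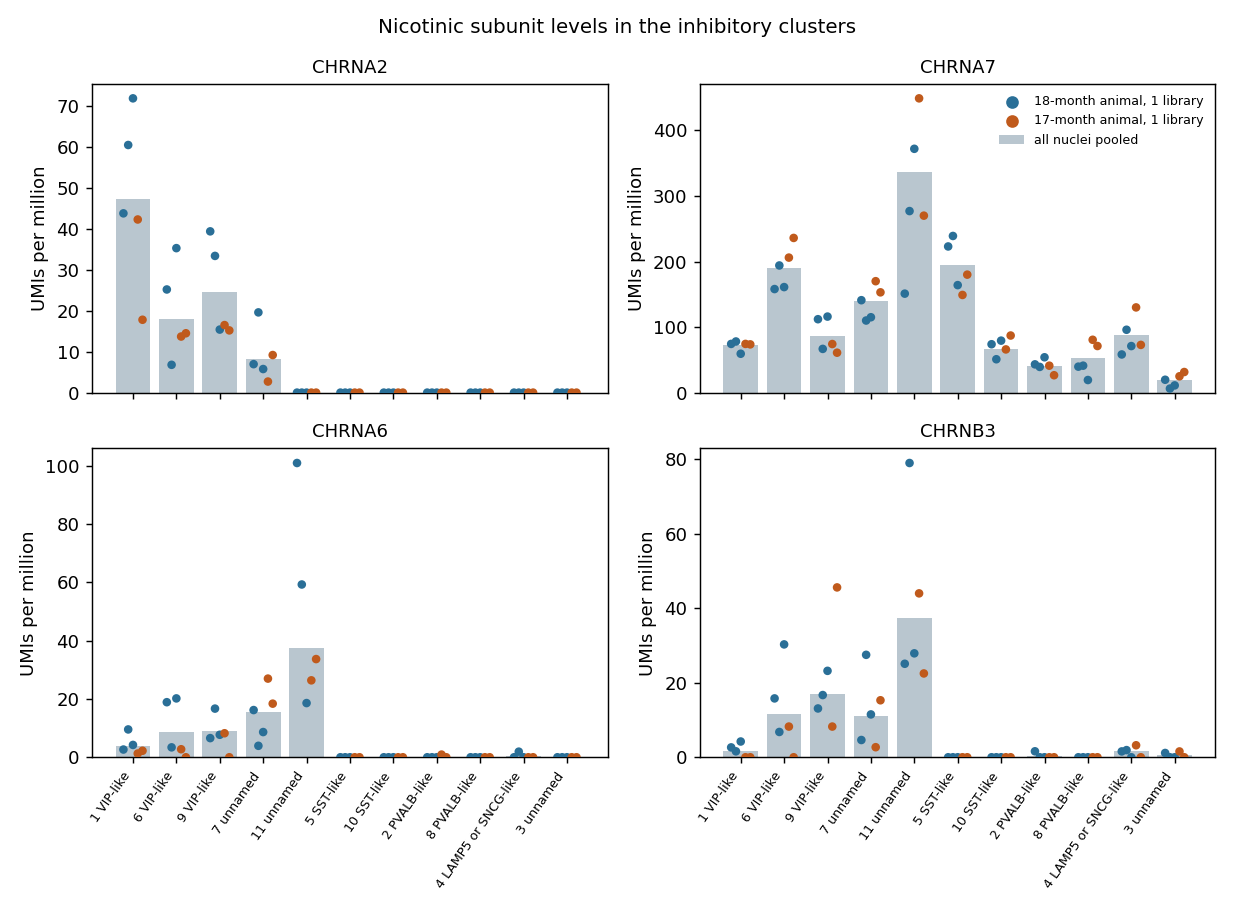
CHRNA2, CHRNA7, CHRNA6 and CHRNB3 in CPM (linear axes from 0) in the inhibitory clusters with at least 50 nuclei, with a bar for all nuclei pooled and 1 point per library. CHRNA2 is at 0 in the SST-like, PVALB-like and LAMP5 or SNCG-like clusters. CHRNA6 and CHRNB3 have their highest bars, 37.5 CPM each, in cluster 11, which has 53 nuclei and no name.

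SST-like and PVALB-like interneurons stood at opposite ends for CHRM3 and CHRNA7. In SST-like neurons CHRNA7 was at 190, 192 and 150 CPM across the 18-month animal and 137 and 167 CPM across the 17-month animal. The mean of 167 ± 24.5 CPM compared with 78.1 ± 11.2 CPM in the other 3 types (log2FC 1.2, SE 0.106, adjusted p = 4.72e-12), and CHRM3 was at 1080 ± 60.9 CPM, against 504 ± 45.3 CPM (log2FC 1.23, SE 0.0623, adjusted p = 3.09e-24). In PVALB-like neurons CHRNA7 was at 42.9 ± 5.68 CPM, against 120 ± 10.1 CPM in the other types (log2FC -1.42, SE 0.122, adjusted p = 1.67e-12). CHRM3 was there at 289, 295 and 210 CPM across the 18-month animal and 329 and 291 CPM across the 17-month animal (log2FC -1.37, SE 0.0713, adjusted p = 1.05e-23). For both genes each SST-like value exceeded each PVALB-like value. Across all named classes CHRNA7 was highest in SST-like neurons, then in VIP-like (106 ± 9.53 CPM) and LAMP5 or SNCG-like neurons (85.6 ± 28.4 CPM), which did not differ beyond their spread. From OPC (51.1 ± 13.2 CPM) down to layer 4/5 IT-like neurons (17.8 ± 0.933 CPM over 3 libraries) no neighbours in the order differed beyond it, and oligodendrocytes were below.

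Of 6948 genes tested across the inhibitory types, 6.51% were called for PVALB-like, 5.97% for SST-like, 5.54% for VIP-like and 7.79% for LAMP5 or SNCG-like neurons. By direction, 2.99% were lower in PVALB-like, 3.08% higher in SST-like and 3.41% higher in VIP-like neurons. Of the receptor genes 3 passed the filter. CHRM3 and CHRNA7 were called lower in PVALB-like and higher in SST-like neurons, and CHRNA2 higher in VIP-like neurons. CHRNA2 had UMIs in VIP-like neurons alone among these types, so it passed the filter only through them. Its call cannot be weighed against the shares over all genes. In VIP-like neurons CHRM3 was higher by a log2FC of 0.50 (adjusted p = 2.85e-09), under the size for a call, and CHRNA7 did not pass (log2FC 0.28, adjusted p = 0.0533). In LAMP5 or SNCG-like neurons CHRM3 was at a log2FC of -0.37 (adjusted p = 5.58e-05) and CHRNA7 at -0.06 (adjusted p = 0.811). With no filter on low counts CHRNA6 (log2FC 4.41, adjusted p = 1.83e-09) and CHRNB3 (log2FC 3.76, adjusted p = 5.85e-09) were also called higher in VIP-like neurons, from 33 and 40 UMIs over the 4 types.

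The SST-like type was not uniform. Inhibitory cluster 5, led by MAN1A1 and SST, had 1200 CPM of CHRM3 and 194 CPM of CHRNA7, pooled over its 285 nuclei. Cluster 10, with 73 nuclei and led by DNAH5 and TRDN, had 578 CPM of CHRM3 and 66.9 CPM of CHRNA7. In each library cluster 5 was above cluster 10 for both genes, although cluster 10 had only 7 to 23 nuclei per library. An unnamed inhibitory cluster, number 3, with 316 nuclei, was led by NTNG1 and ADAMTSL1. It had 19.6, 55.4 and 30.3 CPM of CHRM3 across the 18-month animal and 56.0 and 37.7 CPM across the 17-month animal, below every value of every named neuron type. Its CHRNA7 level, 19.4 CPM pooled, was the lowest of the 11 inhibitory clusters shown.

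Modulator genes differed between the inhibitory types as well. LYPD6 was higher in PVALB-like neurons, at 110 ± 16.1 CPM against 23.5 ± 10.6 CPM in the others (log2FC 2.63, adjusted p = 3.33e-08), and lower in LAMP5 or SNCG-like neurons (log2FC -2.88, adjusted p = 0.000146). LYPD6B, a related modulator, was higher in PVALB-like (log2FC 1.61, adjusted p = 1.25e-10) and VIP-like neurons (log2FC 1.65, adjusted p = 1.29e-10) and lower in LAMP5 or SNCG-like neurons (log2FC -2.46, adjusted p = 3.52e-09). BCHE was higher in SST-like neurons, at 48.2 ± 11.3 CPM against 6.53 ± 1.68 CPM (log2FC 2.94, adjusted p = 6.04e-17). In the same SST-like contrast KCNJ3, an inward rectifier opened by G proteins, was lower (log2FC -1.48, adjusted p = 4.44e-23), as was KCNQ5 (log2FC -1.16, adjusted p = 6.58e-20). Per type, between 0 and 2 of the 12 signalling genes were called in either direction alone.

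CHRNA6 and CHRNB3 were both low in most cell classes. In the RefSeq annotation of the assembly T2T-MMU8v2.0 the 2 genes are direct neighbours. In inhibitory neurons CHRNA6 was at 3.52, 3.04 and 3.65 CPM across the 18-month animal and 3.28 and 3.16 CPM across the 17-month animal, and CHRNB3 was at 2.82, 3.85 and 4.69 CPM and 2.92 and 3.16 CPM. Each gene was seen in 65 of 2585 inhibitory nuclei and both in 8 of them. A CHRNB3 UMI was thus found in 12.3% of inhibitory nuclei with a CHRNA6 UMI and in 2.26% of those without, at median depths of 8067 and 8173 UMIs. This share pools types where both genes are higher with types where both are near 0. Within clusters it was 18.2% against 9.7% in cluster 7 and 10.0% against 7.1% in cluster 6, but 0 of 11 nuclei against 1.11% in cluster 1 and 9.09% against 21.4% in cluster 11, from at most 4 nuclei with both. In excitatory neurons 21 nuclei had CHRNA6, 24 had CHRNB3 and 0 had both. Among the named types VIP-like neurons held 31 UMIs of CHRNA6 and 34 of CHRNB3, while SST-like neurons had 0 of either and PVALB-like neurons 1 and 2. Outside inhibitory neurons both had their highest level of a named neuron type in layer 4/5 IT-like neurons, from 10 UMIs of CHRNA6 and 7 of CHRNB3 in 247 nuclei. In the 3 libraries with at least 20 of these nuclei, CHRNA6 was at 0.58 CPM in 18-month library 2 and at 15 and 4.78 CPM across the 17-month animal, and CHRNB3 at 1.74 CPM and at 12 and 0 CPM, so single libraries decide these levels.

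CHRNB2, the beta subunit of most heteromeric brain receptors, was found at low level in every neuron class and differed little between them. In excitatory neurons it was at 2.08, 2.27 and 2.27 CPM across the 18-month animal and 2.45 and 1.95 CPM across the 17-month animal. In striatal projection neurons it was at 3.55, 4.4 and 2.1 CPM across the 18-month animal and 2.62 and 1.69 CPM across the 17-month animal, which overlaps the excitatory range. Of 2796 excitatory nuclei with a CHRNA7 UMI, 4.29% also had one of CHRNB2, against 3.38% of nuclei without CHRNA7, but the nuclei with CHRNA7 were deeper, at a median of 18387.5 against 14566 UMIs. In inhibitory neurons 3 nuclei had UMIs of both CHRNA2 and CHRNB2.

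CHRNA4, the usual partner of CHRNB2, had 9 UMIs in 8827 excitatory nuclei (0.0598 CPM), 2 in OPC and 0 in inhibitory and striatal projection nuclei, where 0 counts allow up to 0.128 and 0.1 CPM. CHRM1 had 23 UMIs in excitatory nuclei (0.153 CPM), 5 in striatal projection and 3 in inhibitory nuclei. CHRM2 had 36 UMIs in excitatory nuclei (0.239 CPM), with 15, 4 and 4 across the 18-month animal and 12 and 1 across the 17-month animal. At these counts no difference between cell classes was detectable for the 3 genes: with no filter on low counts, neither neurons against glia nor inhibitory against excitatory neurons reached the adjusted p threshold for any of them. Their UMIs were counted near 3' ends, so a low count limits what this assay captured and not the protein.

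In glia, CHRM3 was read against genes that mark excitatory neurons, since RNA freed from other cells also gives UMIs in droplet data. CHRM3 in oligodendrocytes was at 17.2% of its CPM in excitatory nuclei, in OPC at 11.9%, in astrocytes at 14.5% and in microglia at 19.7%. The excitatory marker SV2B was in the same classes at 16.3%, 9.99%, 11.9% and 20.2%, and TBR1 at 28.9%, 20.5%, 23.0% and 34.9%. The markers SLC17A7 (40.9% to 61.5%), NEUROD2 (36.9% to 72.3%) and NEUROD6 (49.4% to 87.3%) were well above CHRM3 in these classes, so the markers themselves differed widely and SV2B was the closest to CHRM3. By library in oligodendrocytes, CHRM3 was at 11.3%, 18.5% and 9.8% of the excitatory level across the 18-month animal and 27.7% and 21.3% across the 17-month animal, and SV2B was at 14.1%, 15.2% and 10.9% in the 18-month animal and 26.2% and 18.7% in the 17-month animal. CHRM3 and SV2B had the same order of libraries in oligodendrocytes, but not in OPC, astrocytes or microglia, and TBR1 varied less in oligodendrocytes, between 27.2% and 32.2%. The part of free RNA in the glial CHRM3 level was not tested, so that level is not given as expression in glia. None of the 4 glial classes differed from the others enough for a call (log2FC between -0.36 and 0.40).

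In OPC and microglia CHRNA7 was at 164% and 143% of its excitatory level, above each excitatory marker given. Unlike those markers, CHRNA7 was higher in inhibitory neurons, at 90.2 ± 6.17 CPM, so its percentages are not on the same footing. Endothelial nuclei were at 113% of the excitatory level. The part of free RNA in these levels was not tested. OPC had 36.9, 38.6 and 59.4 CPM of CHRNA7 across the 18-month animal and 67.4 and 53.3 CPM across the 17-month animal, above the excitatory level in 5 of 5 libraries. Their mean of 51.1 ± 13.2 CPM compared with 24.6 ± 3.94 CPM in the other glial classes (log2FC 1.51, SE 0.167, adjusted p = 1.22e-07). Microglia had 51.5, 47.4 and 52.1 CPM across the 18-month animal and 38.9 and 27.1 CPM across the 17-month animal. In 17-month library 2 this was below the excitatory level, at 89.6% of it, and in each other library above. Their log2FC of 0.93 (adjusted p = 0.000139) was under the size for a call with all libraries, and it was 1.24 across the 18-month animal alone and 1.04 and 1.05 without each of the 17-month libraries. Astrocytes stood with the mean of the others (log2FC -0.05, adjusted p = 0.891). Oligodendrocytes had 6.45 ± 1.95 CPM, against 39.5 ± 5.11 CPM in the other classes (log2FC -2.40, SE 0.181, adjusted p = 1.88e-10), or 21.1% of the excitatory level. The excitatory markers lay between 16.3% and 85.0% there, and the part of free RNA in this level was not tested.

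Of 8436 genes tested across glia, 16.5% were called in OPC (9.36% higher), 19% in oligodendrocytes (11.3% lower), 18.8% in astrocytes and 25% in microglia. Of the receptor genes 2 passed the filter, and the 2 calls were CHRNA7 higher in OPC and lower in oligodendrocytes. At 1000 UMIs per nucleus CHRNA7 was seen in 4.03% ± 1.22 of OPC and 3.73% ± 1.18 of microglia, against 0.681% ± 0.18 of oligodendrocytes (unthinned 14.7%, 7.86% and 1.51%, at median depths of 3606, 2036 and 2395 UMIs). In excitatory neurons the share at 1000 UMIs was 2.81% ± 0.237.

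**Figure D4:**
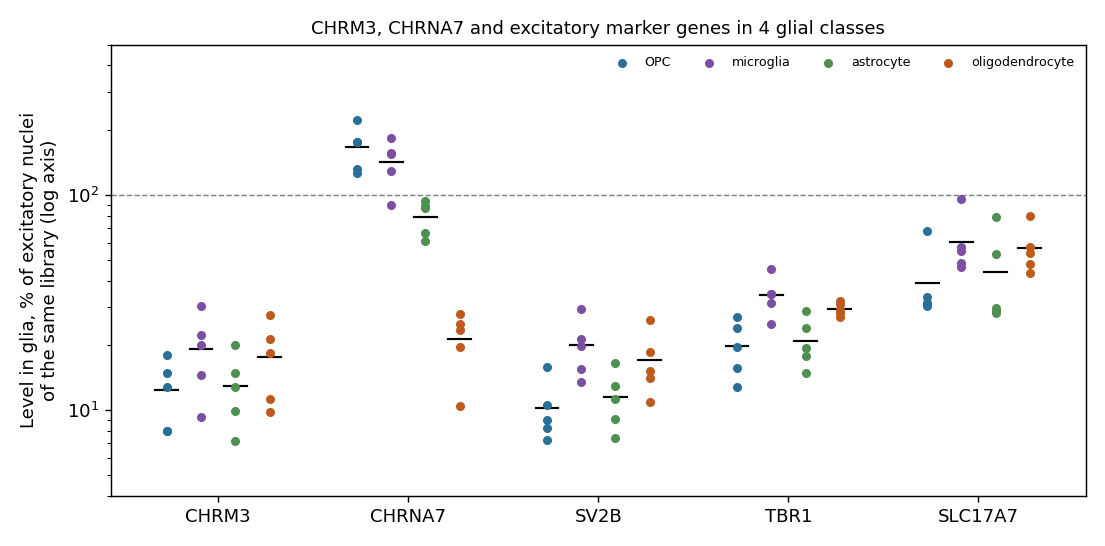
Levels of CHRM3, CHRNA7 and the excitatory marker genes SV2B, TBR1 and SLC17A7 in OPC, microglia, astrocytes and oligodendrocytes, as a percentage of the CPM in excitatory nuclei of the same library (log axis), with 1 point per library and a bar at the mean. The dashed line marks the excitatory level, 100%. CHRNA7 in OPC lies above the line in each library, between 127% and 224%, and CHRM3 lies close to SV2B.

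Other genes of acetylcholine handling were also unevenly spread over glia. SLC5A7 was higher in OPC, at 14 ± 8.11 CPM against 1.10 ± 0.424 CPM in the other classes (log2FC 4, adjusted p = 3.28e-08), as were BCHE (92.2 ± 6.55 CPM against 21.3 ± 7.83 CPM, log2FC 3.09, adjusted p = 2.88e-15) and KCNJ3 (log2FC 1.63, adjusted p = 1.19e-07). PRIMA1 was higher in oligodendrocytes, at 82.8 ± 5.36 CPM against 8.40 ± 1.99 CPM (log2FC 3.91, adjusted p = 2.1e-21). Astrocytes had the higher levels of LYPD6 (64.3 ± 18.3 CPM against 3.58 ± 0.367 CPM, log2FC 4.29, adjusted p = 1.83e-17) and LYPD6B (log2FC 3.15, adjusted p = 5.87e-18). In microglia KCNQ3 was higher (log2FC 3.49, adjusted p = 1.4e-08), while PLCB4 (log2FC -3.67, adjusted p = 8.87e-12) and PRIMA1 (log2FC -3.22, adjusted p = 3.15e-11) were lower. LYPD6 was also lower in microglia (log2FC -2.63, adjusted p = 3.78e-07), among 3 of 4 tested assembly genes that were.

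The labels' only grouping was by animal, and here any called gene counted with no fold threshold. In claustrum-like neurons 12.1% of 10810 genes differed between the 18-month and the 17-month animal, and 0 of the 3 receptor genes tested did, nor did any pass an unadjusted p of 0.05. CHRM3 was at 707 ± 24.8 CPM across the 18-month animal and 693 ± 14.2 CPM across the 17-month animal (log2FC 0.09, adjusted p = 0.408). In inhibitory neurons 6.91% of 9418 genes differed and 0 of 6 receptor genes. CHRNA2 was the 1 gene of them with an unadjusted p under 0.05, at 10.5 ± 1.39 CPM across the 18-month animal and 6.07 ± 2.49 CPM across the 17-month animal (log2FC 0.71, adjusted p = 0.0778). Without 17-month library 1 it was called (log2FC 1.27, adjusted p = 0.0468). In claustrum-like neurons LYPD6B was higher in the 18-month animal, at 107 ± 6.85 CPM, against 39.3 ± 3.41 CPM in the 17-month animal (log2FC 1.51, adjusted p = 3.89e-05), and CHRNA5 was higher too (log2FC 2.26, adjusted p = 0.014). Age, animal and preparation cannot be told apart, since each age is 1 animal.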

How the data were processed

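The authors deposited raw UMI counts per gene and nucleus from 10x 3' libraries of frozen claustrum, and the file headers give Cell Ranger 5.0.1 as their source; CASAVA 1.8, Seurat and the builds Mmul_10 and mm10 are named in the submitters' processing notes. Of 21761 features, 16522 had a symbol in the files and 645 were named through an identifier table; sequences were not used here. From 40005 barcodes, 359 with under 500 genes were removed, and 2555 nuclei with the highest Scrublet scores (scanpy 1.11.5) were removed as doublets at 0.8% per 1000 nuclei, because the automatic threshold marked 0.0314% to 2.76%. Nuclei were clustered with Leiden in igraph 0.11.9 (30 components, 15 neighbours, resolution 1.0, and 0.6 within neurons) on 2000 variable genes taken from a random part of the table that left out the receptor and pathway genes; genes used for clustering were not tested. Clusters were named from marker lists, with naming thresholds revised after clusters were seen. Counts were summed per library and class (at least 20 nuclei) and compared by edgeR's quasi-likelihood test (version 4.0.16 in R 4.3.3). The fits used TMM scaling, the filterByExpr filter, robust dispersion and the library as a block (animal comparisons without it). Benjamini-Hochberg adjustment was over all genes tested. Marker genes were left out, except those on the pathway lists, such as SLC5A7. DESeq2 1.42.0, other scaling, no low-count filter and leaving out libraries were the alternatives. Shares of nuclei used thinning to 1000 UMIs, or 2000 as an alternative. A floor is 3 counts; floors and limits cover counting error only. Replicate numbers come from the labels and do not pair libraries. Labels give each age as 1 animal, so p-values measure spread between libraries, which may be technical. The receptor genes and pathway lists were chosen with earlier results of these data known. Each receptor gene was to be named, with up to 4 called pathway genes of largest change per comparison; others named were chosen after their values were seen. Some genes are not reported here. The fits were tested on simulated data.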

Additional observations from a re-analysis of the deposited data

Results flagged for a closer look

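The contrast of neurons with glia for CHRM3 differed between the animals. The log2 fold change was larger by 0.85 in the 18-month animal than in the 17-month animal (interaction in edgeR, adjusted p = 0.00565, where 663 of 10020 genes were under 0.05). CHRM3 in excitatory nuclei was at 632, 634 and 626 CPM across the 18-month animal and 622 and 603 CPM across the 17-month animal. In oligodendrocytes it was at 71.1, 117 and 61.3 CPM across the 18-month animal and 172 and 129 CPM across the 17-month animal, and the excitatory marker SV2B was there at 14.1%, 15.2% and 10.9% of its excitatory level in the 18-month animal and 26.2% and 18.7% in the 17-month animal. The part of free RNA in this difference was not tested.

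The contrast of striatal projection with excitatory neurons for CHRNA7 also differed between the animals, with a log2 difference of -0.85 (18-month minus 17-month, adjusted p = 0.00123, where 375 of 9851 genes were under 0.05). CHRNA7 in striatal projection neurons was at 21.7, 23.8 and 22.2 CPM across the 18-month animal and 37.8 and 44.4 CPM across the 17-month animal, without overlap. Striatal cluster 4, a D1-type cluster, made up 50 of 359, 68 of 863 and 71 of 590 nuclei of the class across the 18-month animal and 50 of 239 and 35 of 139 across the 17-month animal. In this cluster CHRNA7 was at 35.5, 40.5 and 32.1 CPM across the 18-month animal and 84 and 92.8 CPM across the 17-month animal. The part of the make-up in this difference was not tested.

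Clusters of inhibitory neurons without a name, which entered no comparison of types, held higher levels than any named interneuron type. Cluster 11 (53 nuclei, led by NPSR1 and RELN) had 337 CPM of CHRNA7, against 169 CPM pooled in the highest named type. It had 37.5 CPM of CHRNA6 and 37.5 CPM of CHRNB3, against 5.92 and 6.49 CPM in the highest named type. Cluster 7 (156 nuclei, led by CNR1) had 15.6 CPM of CHRNA6 and 11 CPM of CHRNB3. In cluster 11 the CHRNA6 values rest on 4, 3 and 2 UMIs across the 18-month animal and 3 and 3 across the 17-month animal. No library stood apart by Dixon's criterion among 53 sets of 5 libraries, where chance would flag about 1 in 20.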

How the results depend on the processing

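Of the recomputed counts of called receptor genes, 112 stayed within 1.5 times the reported count and 2 did not, and 0 of the values recomputed under these alternatives reversed. Leaving out each library in turn gave 0 to 1 called receptor genes in claustrum-like against other named excitatory neurons and 0 to 1 between the animals in inhibitory neurons, each count of 1 without 17-month library 1. Single genes crossed a threshold 10 times: CHRNA7 in neurons against glia in 4 settings (0.95 to 0.98), CHRNA7 in microglia in 3 (1.04 to 1.24), CHRM3 in claustrum-like neurons (1.01), CHRNA2 between animals (1.27), and CHRNA2 in VIP-like neurons under DESeq2 (7.16, adjusted p = 0.137). The cause was not tested. No filter on low counts raised the calls among inhibitory types to 7, against 5, and DESeq2 gave 4. Replicate numbers only name libraries: with the replicate block the animal comparisons gave 0 and 0 calls, and with no replicate block the class comparisons kept their counts. Alternatives added after seeing the data, leaving out excitatory cluster 8 or inhibitory clusters under 50 nuclei, gave 0 calls between animals. Shares of nuclei with a CHRM3 or CHRNA7 UMI were recomputed by class at 2000 UMIs per nucleus. All 14 of these shares moved beyond their spread, and a greater depth by itself raises such shares. Over all receptor genes, 15 of 63 shares exceeded 1%, beside 14 at 1000 UMIs. Depth limits CHRM1, CHRM2 and CHRNA4 throughout.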

Other observations

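An unnamed cluster of 116 nuclei, number 27 of the clustering of all nuclei, held transcripts of acetylcholine synthesis and choline uptake. CHAT, the synthesising enzyme, was at 52.0 CPM there from 78 UMIs, against 6 UMIs in excitatory nuclei, 5 in oligodendrocytes and 0 in the other named classes. SLC5A7 was at 146 CPM from 219 UMIs, beside 108 UMIs in excitatory nuclei and 102 in OPC. ACHE was at 40.0 CPM and PRIMA1 at 103 CPM. Among the receptor genes CHRM3 was at 199 CPM and CHRNA7 at 79.9 CPM, while CHRNB2 had 7 UMIs (4.66 CPM) and CHRM2 had 3 UMIs (2.0 CPM). CHRNA2, CHRNA4 and CHRM1 had 0 UMIs, which allows up to 2.0 CPM. The nuclei came from all 5 libraries, 22, 43 and 28 from the 18-month animal and 9 and 14 from the 17-month animal. The cluster was led by IL1RAPL2 and PDE1C, among others, and was chosen after its values were seen.

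The genes whose mean log2 levels over 17 named classes and subclasses most resembled the other receptor genes, as a description with no test, were PTPRN for CHRM3 (Pearson r = 0.927), HLTF for CHRNA7 among named genes (0.854), HCN2 for CHRNB2 (0.905), GRPR for CHRNB3 (0.828) and SCGN for CHRNA6 (0.714). These points share the same 5 libraries.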
